A study of Mus musculus with 16 samples.

Results

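The comparison set the hearts of 4 mice null for both MuRF1 and MuRF2 (MuRF1 -/- // MuRF2 -/-, called double null here) against the hearts of 4 mice that kept 1 MuRF1 allele and had no MuRF2 (MuRF1 +/- // MuRF2 -/-, called MuRF1 het MuRF2 null). Both groups lacked MuRF2, so the groups differed by genotype in the last MuRF1 allele. The members were chosen by the genotype in the array titles, which gave 8 of the 16 arrays of the series, 1 heart per array. The mice were 12 weeks old, and the design text calls the groups strain-matched without naming the strain, the sex or the way the alleles were made. The other 8 arrays, 4 of wild type and 4 of MuRF1 null MuRF2 het hearts (MuRF1 -/- // MuRF2 +/-), entered the estimate of the spread and are given beside the results. Heart RNA was labelled with Cy5 and hybridised with a common Cy3 reference made by pooling RNA of whole pups (C57BL/6, postnatal day 1), with no dye swap, and a ratio is the log2 of heart over reference. The titles call the replicates biological; the p-values measure the spread between these samples.

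MuRF1 (gene Trim63) and MuRF2 (Trim55) are RING finger ubiquitin ligases of striated muscle that bind titin at the sarcomere M-line, and MuRF1 marks contractile proteins for breakdown by the proteasome. MuRF3 (Trim54) is the third member of the family. A heart under strain switches on genes of the fetal heart, among them the natriuretic peptides Nppa and Nppb, skeletal actin (Acta1) and the slow myosin Myh7, and lowers the adult fast myosin Myh6. The title of the study names the transcription factor E2F1 as a target of both MuRF proteins.

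Some properties of the arrays touch every result below. The 4 MuRF1 het MuRF2 null arrays shared a slide of their own, scanned later and read with a later version of the image software, while the double null arrays lay on 2 other slides, each with 2 wild type arrays; slide and genotype therefore cannot be told apart. In the Cy3 channel, which held the same reference on every array, 6996 of 12330 genes (56.7%) passed the test between the groups, with a median absolute difference of 0.12 log2 and 22 genes were more than 2-fold brighter and 2 more than 2-fold dimmer on the double null arrays; between double null and wild type arrays 183 passed. The double null arrays were also dimmer. Probes with a heart signal well above background numbered 12126, 6037, 14503 and 11725 on double null arrays 1 to 4, and 16129 to 17391 on the MuRF1 het MuRF2 null arrays (difference of means -5571, exact two-sided permutation test p = 0.0286, the smallest that 4 against 4 arrays allow). The file of double null 2, the dimmest, held values rounded to 3 significant digits, and the SD of its ratios over genes was 0.61 against 0.83 to 0.92 on the other 7 arrays. Correlations between arrays ran from 0.785 to 0.963 within the double null group and from 0.973 to 0.985 within the MuRF1 het MuRF2 null group. For these reasons the Cy5 signal alone, scaled to a common distribution, is given beside the ratio for the lists, and for a gene where its difference departed from that of the ratio by more than 0.4 log2; the Cy3 difference is given where it exceeded 0.4 log2.

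The genotype check came first. The Trim63 ratio was -0.78, -0.39, -1.04 and -0.68 on double null arrays 1 to 4 and 2.11, 2.13, 1.83 and 1.70 on MuRF1 het MuRF2 null arrays 1 to 4. The groups were far apart, with means of -0.72 ± 0.27 (SD, n = 4) and 1.94 ± 0.21. The difference was -2.66 ± 0.14 (SE; 6.33-fold; limma, adjusted p = 2.85e-08), and it was -2.94 in Cy5 alone. Wild type hearts had 2.63 ± 0.09, and the hearts with 1 MuRF1 allele differed from them by -0.69 ± 0.14 (limma, adjusted p = 0.0181). The MuRF1 null MuRF2 het hearts, with a mean of -0.64, lay with the double null hearts. A second, dim Trim63 probe read -0.12 in double null and 0.20 in MuRF1 het MuRF2 null hearts. The Trim55 ratio did not pass (-1.35 ± 0.56 against -1.28 ± 0.19, difference -0.07 ± 0.25, limma, adjusted p = 0.854), although Cy5 and Cy3 alone were higher by 1.48 and 1.53 on the double null arrays; no label says which part of the gene was deleted, and the probe is therefore no check of this genotype. Trim54 rose by 0.50 ± 0.11 (limma, adjusted p = 0.00567), from 2.30 ± 0.18 to 2.80 ± 0.18, and by 0.38 in Cy5 alone.

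Across the 12330 genes tested, 3251 (26.4%) passed at an adjusted p under 0.05 (limma), of which 1689 (13.7%) rose and 1562 (12.7%) fell. The differences were mostly small: 87 of the rises and 129 of the falls exceeded 2-fold, and the median absolute difference was 0.20 log2. In Cy5 alone 3626 genes passed, 1606 higher and 2020 lower. A stricter count asked for a pass in the ratio and in Cy5 alone in the same direction, with the 4 arrays of one group all above the 4 of the other in both, and found 600 rises (4.87%) and 788 falls (6.39%). In the ratio alone the arrays of the groups did not overlap for 3552 genes (28.8%). Genes named below because they met the stricter count were chosen for this separation, so it is no further result for them. The split of the calls moved with the dye normalisation, as the log ratio of the image software gave 855 higher and 1656 lower. With median centring in place of loess fewer genes passed, 380 of 12330 higher and 501 lower. List counts under median centring are to be read beside these numbers and not beside the shares of the main setting.

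**Figure D1:**
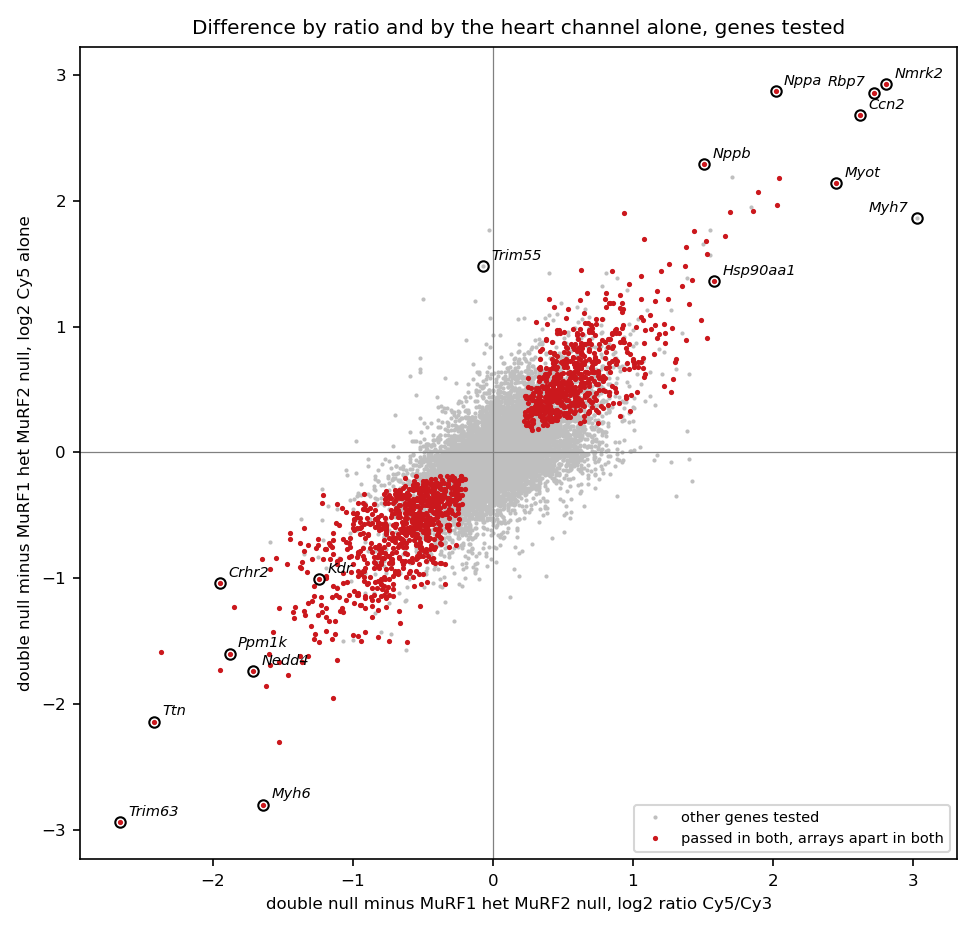
Each point is a gene, placed by its double null minus MuRF1 het MuRF2 null difference in the log2 ratio (x axis) and in log2 Cy5 alone (y axis); red points passed in both with arrays apart, and circled genes are named. Trim63 and Ttn lie at the lower left, Nmrk2, Rbp7 and Ccn2 at the upper right, and Trim55 lies at -0.07 on the x axis and 1.48 on the y axis.

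Most differences ran toward a ratio of 0. Of the 1562 genes that fell, 1356 (86.8%) were above 0 in MuRF1 het MuRF2 null hearts. Over all genes tested, 75.3% of those with a lower ratio in double null hearts were. Of the 1689 that rose, 1293 (76.6%) were below 0, against 65.3% of all genes with a higher ratio. Of the called genes 71.6% lay nearer to 0 in double null hearts, and over all genes tested 64.0% did. The difference is computed with the same MuRF1 het MuRF2 null mean, so level and difference are not independent. The low brightness of the double null arrays moves with this pattern, and its part in the result was not tested. In the stricter count 452 genes lay farther from 0 in double null hearts. Of the genes described next, Ttn, Nedd4, Emilin2, Myh4, Nppa, Ankrd23, Nmrk2, Rbp7, Abra and Ccn2 were among these, while Trim63 crossed 0 and came to lie nearer to it.

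**Figure D2:**
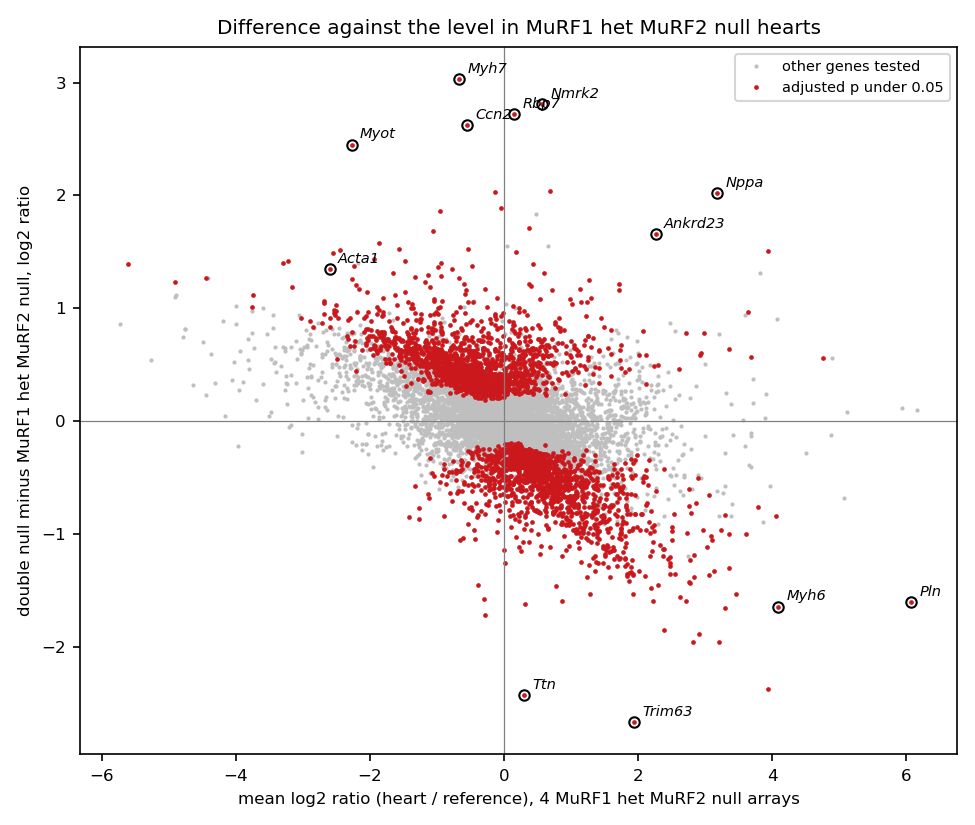
Each point is a gene, placed by its mean log2 ratio in the 4 MuRF1 het MuRF2 null hearts (x axis) and by its double null minus MuRF1 het MuRF2 null difference (y axis); red points passed at an adjusted p under 0.05. The cloud slopes from upper left to lower right, while Nppa, Ankrd23, Nmrk2, Ttn and Trim63 lie off the slope.

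The fetal and stressed heart genes included some of the largest rises. Of 26 members tested, 9 rose and 3 fell (all genes: 13.7% rose, 12.7% fell), with a median difference of 0.44 in the ratio and 0.04 in Cy5 alone, against 0.01 and -0.03 over all genes tested; in Cy5 alone 8 rose and 5 fell. With median centring in place of loess 1 rose and 2 fell, and the list's median was -0.11. Nppa, the atrial natriuretic peptide, read 4.63, 6.62, 4.40 and 5.18 on double null arrays 1 to 4 and 2.94, 2.85, 4.03 and 2.92 on MuRF1 het MuRF2 null arrays. No double null array fell within the range of the other group, and the difference was 2.02 ± 0.36 (4.06-fold; limma, adjusted p = 0.00143), with 2.87 in Cy5 alone and 1.35 in Cy3 alone. The signal was saturated on 1 double null array, so the fold of this probe may be understated; a second Nppa probe read 5.48 ± 0.47 in double null and 2.92 ± 0.75 in MuRF1 het MuRF2 null hearts. Nppb, the brain natriuretic peptide, read 5.4, 5.01, 5.65 and 5.70 against 3.87, 3.55, 4.67 and 3.62. All 4 double null values again lay above, by 1.51 ± 0.33 (2.85-fold; limma, adjusted p = 0.00482), with 2.29 in Cy5 alone and 0.44 in Cy3.

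The myosin and actin genes differed between single double null hearts. Myh7 read -0.38, 2.81, 3.82 and 3.20 on double null arrays 1 to 4 against -1.41, -0.82, 0.39 and -0.81, a difference of 3.03 ± 0.72 (limma, adjusted p = 0.00717), with 1.86 in Cy5 alone and -0.48 in Cy3. Double null 1 lay inside the range of the MuRF1 het MuRF2 null hearts, and the other 3 lay above it. Acta1 showed the same array apart, with -2.18, -0.32, -1.09 and -1.40 against -2.52, -2.94, -2.10 and -2.83 (difference 1.35 ± 0.28, limma, adjusted p = 0.0031). Fhl1, a LIM protein of the sarcomere, did too, with -2.17 on double null 1 and -0.79, -0.37 and -0.92 on the others, against -2.64 to -2.45; the difference was 1.49 ± 0.29 (limma, adjusted p = 0.00209), with 1.05 in Cy5 alone. Myh6 fell in all 4 double null hearts, reading 1.61, 2.44, 3.02 and 2.74 against 3.93 to 4.22 (difference -1.64 ± 0.31; 3.11-fold; limma, adjusted p = 0.00178), and its lowest value was on double null 1. The Myh6 difference was larger in Cy5 alone, at -2.80, with -0.50 in Cy3. Wild type hearts had a Myh7 mean of -2.07 and a Myh6 mean of 3.97. Among the other members, Ankrd23, an ankyrin repeat protein that binds titin, rose by 1.66 ± 0.31, and Ankrd1, named here after its values were seen, did not pass (0.91 ± 0.41, limma, adjusted p = 0.105).

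**Figure D3:**
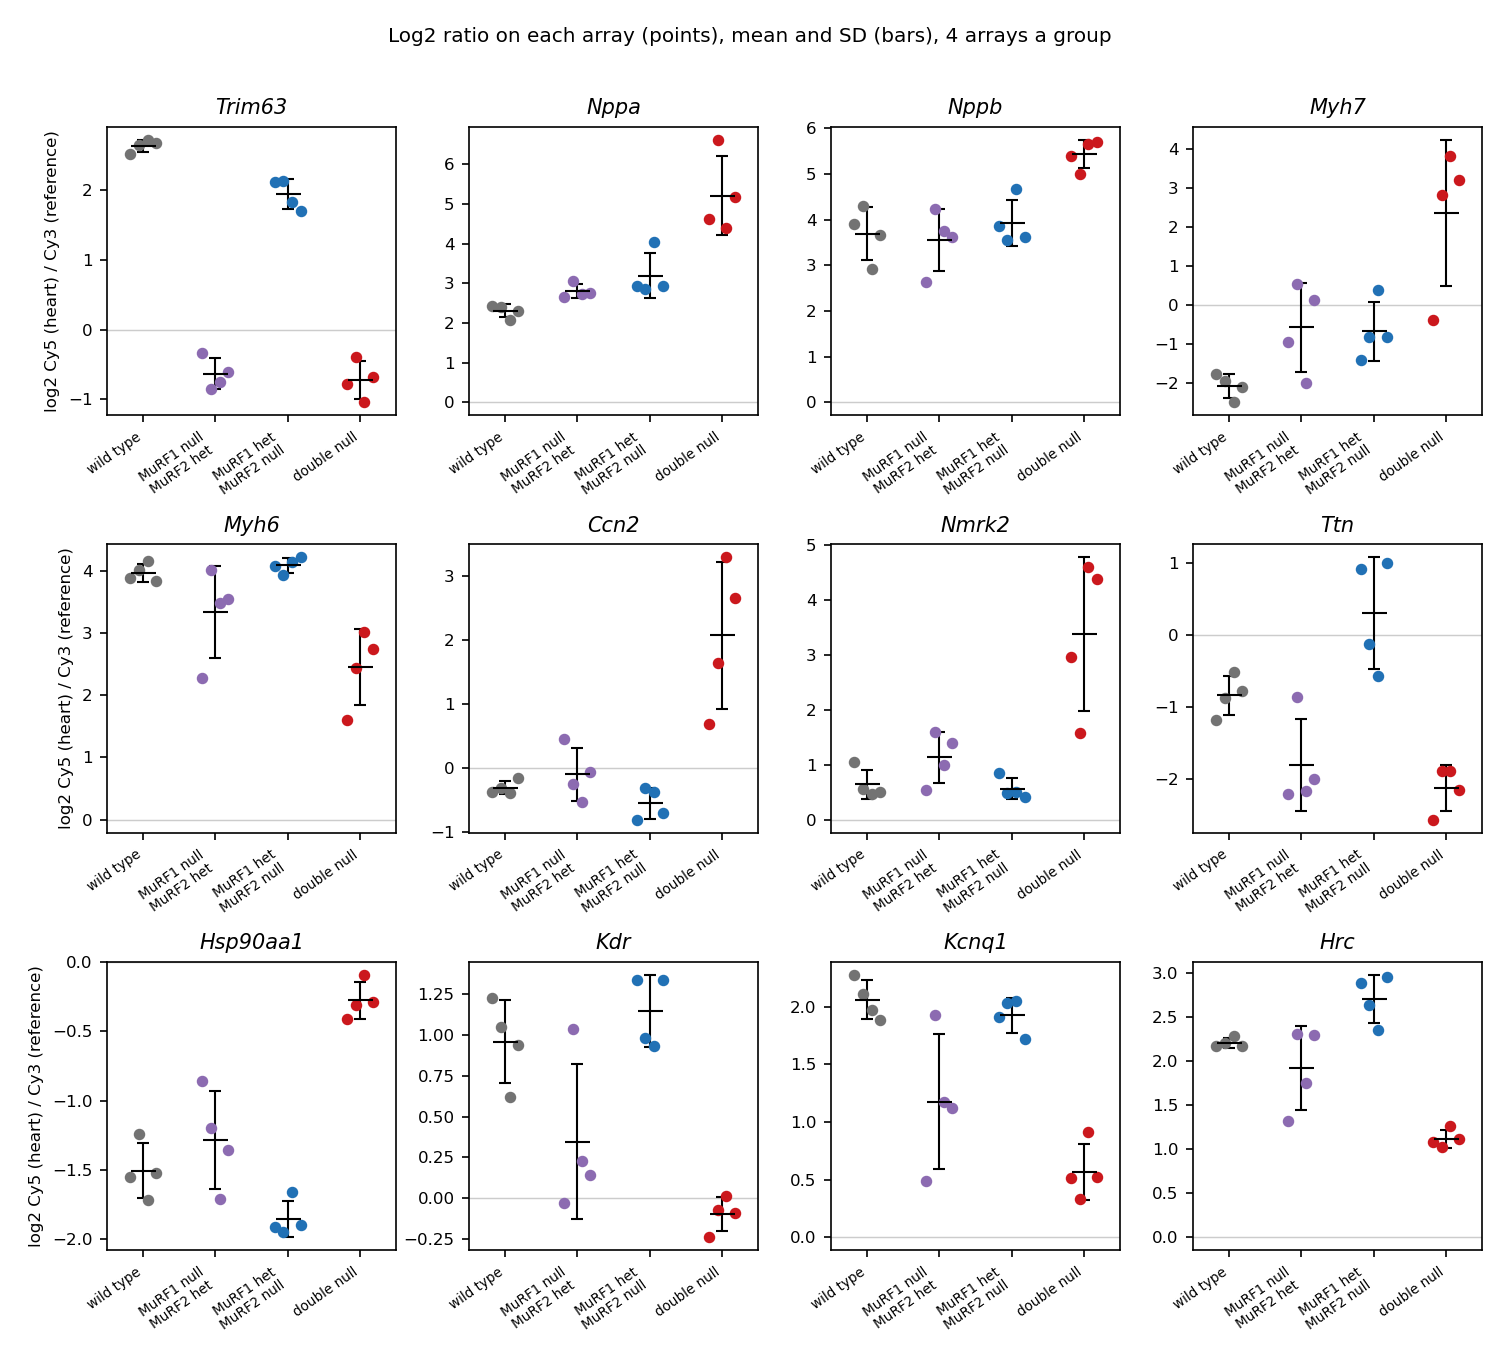
Each panel plots the log2 ratio of heart over reference (y axis) on the 4 arrays of each genotype (x axis), with the mean and SD as bars. Trim63 was low in both groups without MuRF1, Nppa, Nmrk2 and Ccn2 were high in double null hearts, and for Kdr, Kcnq1 and Hrc all 4 double null arrays lay below all 4 MuRF1 het MuRF2 null arrays.

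The promoters of 4 of these genes are shown because Myh7, Acta1 and Nppb rose while Myh6 fell, and all 4 carry the same short motif. The MCAT element, CATTCC on either strand, is bound by TEAD factors, and the CArG box is bound by serum response factor. Sequences are the 250 bases before the first listed gene start of RefSeq (GRCm38.p6), 5′ to 3′ on the gene's strand, with MCAT and CArG matches in capitals; the matches do not overlap.
Nppb, chr4:147985650-147985899, plus strand: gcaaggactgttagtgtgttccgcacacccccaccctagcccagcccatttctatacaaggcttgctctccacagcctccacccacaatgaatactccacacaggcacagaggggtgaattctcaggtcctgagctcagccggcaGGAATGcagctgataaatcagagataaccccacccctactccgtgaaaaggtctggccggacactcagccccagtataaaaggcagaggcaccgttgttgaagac
Acta1, chr8:123894776-123895025, minus strand: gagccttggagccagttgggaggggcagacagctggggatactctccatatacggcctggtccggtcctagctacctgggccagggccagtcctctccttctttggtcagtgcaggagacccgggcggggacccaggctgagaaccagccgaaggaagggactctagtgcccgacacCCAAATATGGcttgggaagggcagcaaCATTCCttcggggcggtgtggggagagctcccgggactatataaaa
Myh7, chr14:54994627-54994876, minus strand: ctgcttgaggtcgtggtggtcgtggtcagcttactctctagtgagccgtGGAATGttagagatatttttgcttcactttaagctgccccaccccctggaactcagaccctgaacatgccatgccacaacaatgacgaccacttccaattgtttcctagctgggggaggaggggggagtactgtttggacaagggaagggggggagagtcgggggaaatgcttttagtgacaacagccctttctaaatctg
Myh6, chr14:54966608-54966857, minus strand: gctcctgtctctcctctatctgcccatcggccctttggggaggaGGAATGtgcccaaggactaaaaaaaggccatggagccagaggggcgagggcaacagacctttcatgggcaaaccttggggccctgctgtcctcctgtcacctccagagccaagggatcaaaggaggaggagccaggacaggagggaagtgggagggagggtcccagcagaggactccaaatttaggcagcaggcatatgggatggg
A promoter was found for 21 of the 26 fetal and stressed heart genes, and the MCAT letters were in 7 of them, against 12.6% of 27025 mouse promoters of the same length. Members were counted whether or not they passed. Nppa, Ankrd23 and Fhl1, which also rose, had no MCAT match. The MCAT letters were in 1 of the 8 promoters found for the 12 largest rises. Of the 11 found for the 12 largest falls, 4 had them. The CArG letters were in 4 of the 21 against 1.40% of all promoters. For the E2F motif (TTTCCCGC or TTTGGCGC, either strand), 6 of 32 promoters of the E2F target list had a match against 1.35% of all. These are matches of letters only, and the E2F list was made of genes known as E2F targets.

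Ccn2, Nmrk2 and Rbp7 were among the 12 largest rises, and the double null hearts differed among themselves in each. Ccn2, a matricellular protein induced by TGF-beta and stretch, read 0.69, 1.65, 3.30 and 2.66 on double null arrays 1 to 4 against -0.81 to -0.31 in MuRF1 het MuRF2 null hearts. Every double null array was above the other group, and the difference was 2.62 ± 0.39 (6.16-fold; limma, adjusted p = 0.000386), with 0.04 in Cy3. Nmrk2, a nicotinamide riboside kinase that makes NAD in muscle, read 2.95, 1.58, 4.59 and 4.37 against 0.42 to 0.85 (difference 2.81 ± 0.47; limma, adjusted p = 0.000881). For both genes arrays 3 and 4, which shared a slide, were the 2 highest: the Ccn2 difference was 1.72 with the double null arrays of slide 1 and 3.53 with those of slide 3, and the Nmrk2 difference was 1.70 and 3.91. Rbp7, a retinol binding protein, read 3.41, 3.1, 2.22 and 2.74 against -0.51 to 1.04, and here slide 1 held the higher values. Its difference was 2.72 ± 0.39 (limma, adjusted p = 0.000295) and the MuRF1 null MuRF2 het hearts had a mean of 2.17 ± 0.90, against 0.15 ± 0.68 in MuRF1 het MuRF2 null hearts. The actin-binding protein Abra rose by 2.04 ± 0.27, the TWEAK receptor Tnfrsf12a by 1.89 ± 0.23 and the Z-disc protein myotilin (Myot) by 2.45 ± 0.30. Lman1l rose by 2.03 ± 0.30 and the melanin enzyme Dct by 1.69 ± 0.23.

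In the stricter count Ttn had the largest fall after Trim63. The Ttn probe, for the giant sarcomere spring titin, read -2.56, -1.88, -1.89 and -2.15 on double null arrays and 0.92, -0.13, -0.57 and 0.99 on MuRF1 het MuRF2 null arrays. The groups did not overlap, and the difference was -2.42 ± 0.34 (5.37-fold; limma, adjusted p = 0.000266), with -2.14 in Cy5 and 0.55 in Cy3. Wild type hearts lay between them at -0.84 ± 0.27, and MuRF1 null MuRF2 het hearts had -1.80 ± 0.63. Nedd4, a ubiquitin ligase, fell by 1.71 ± 0.17 (limma, adjusted p = 5.2e-05), from -0.29 ± 0.19 to -2.00 ± 0.40. Emilin2, an elastic-fibre glycoprotein, fell by 1.62 ± 0.22, and Myh4, a fast skeletal myosin, fell by 1.57 ± 0.27 (0.47 in Cy3). Further large falls were those of the urocortin receptor Crhr2 (-1.95 ± 0.22), the mitochondrial phosphatase Ppm1k (-1.88 ± 0.23), the smooth and cardiac muscle coactivator Myocd (-1.59 ± 0.21) and the thin filament protein Nebl (-1.55 ± 0.32). Cy5 alone gave -1.04 for Crhr2, -0.93 for Myocd and -0.84 for Nebl. Among all 29 sarcomere genes tested 9 rose and 5 fell in the ratio, while 3 rose and 12 fell in Cy5 alone; the median was 0.16 in the ratio, -0.28 in Cy5 alone and -0.66 with median centring, so no common direction is given.

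Genes of calcium handling and ion channels were lower as a list. Of 26 tested, 17 fell and 1 rose, against 12.7% and 13.7% of all genes, with a median of -0.86 in the ratio and -0.52 in Cy5 alone. With median centring 10 fell, against 501 of 12330 over all genes, and the median was -0.82. Among members with probes above background on all 8 arrays the median was nearer to 0, at -0.46. Hrc, a calcium-binding protein of the sarcoplasmic reticulum, read 1.08, 1.02, 1.26 and 1.12 against 2.89, 2.64, 2.35 and 2.95. The groups were apart and the double null values were close together (difference -1.59 ± 0.18, 3.01-fold; limma, adjusted p = 8.74e-05). The potassium channel Kcnq1 fell by 1.36 ± 0.22 and its partner Kcne1 by 1.32 ± 0.15; in Cy5 alone they differed by -0.87 and -0.74. Kcne1 was not well above background on any double null array. From the loess-normalised signal its fall was at least 2.01-fold, a bound that the -0.74 log2 of Cy5 alone did not reach. The gap junction protein Gja1 fell by 1.28 ± 0.20, and phospholamban (Pln), the inhibitor of the calcium pump, fell by 1.60 ± 0.44 with 3.14 on double null 2 and 4.81 to 5.09 on the others; with the log ratio of the image software Pln differed by -0.36 and did not pass. The calcium pump Atp2a2 did not pass in the ratio (-0.28, limma, adjusted p = 0.148). In Cy5 alone it read 12.40, 12.66, 12.85 and 12.38 on double null arrays against 13.97, 14.05, 13.88 and 13.73, which is apart by -1.34 (limma, adjusted p = 0.000274), with -0.42 in Cy3. The list's median was farthest from 0 on the dimmest double null array and nearest to 0 on the brightest: it was -1.16 on array 2, the dimmest, -0.91 and -0.71 on arrays 1 and 4, and -0.43 on array 3, the brightest. A dim array of another genotype, MuRF1 null MuRF2 het 1 with 6402 probes above background, read 0.49 for Kcnq1 and 0.08 for Gja1. The other 3 arrays of that group read 1.12 to 1.93 and 0.81 to 1.19. In Cy5 alone the dim array read 7.07 for Kcnq1 and 7.02 for Gja1, against 6.90 to 7.37 and 7.69 to 7.99. Kcnq1 and Gja1 are examples, and the dim array is also a different heart, so brightness and heart cannot be told apart. With Cy5 brightness as a covariate the list's median was -0.65. The median Cy5 signal was 38 to 39.88 on double null arrays and 42.58 to 43.34 on MuRF1 het MuRF2 null arrays. Without overlap that fit cannot separate brightness from genotype, and the part of brightness in these falls was not tested.

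Endothelial markers were lower as a list. Of 20 tested, 13 fell and 0 rose (limma; 0 were higher at an unadjusted p under 0.05, and in Cy5 alone 14 fell and 0 rose), with a median of -0.41 in the ratio and -0.44 in Cy5 alone. Over all genes 12.7% fell. With median centring 5 members fell, against 501 of 12330 over all genes. Kdr, the main VEGF receptor, read -0.24, -0.07, 0.01 and -0.09 on double null arrays against 1.34, 0.98, 0.93 and 1.34. The groups were apart by -1.24 ± 0.19 (2.37-fold; limma, adjusted p = 0.00051), and wild type hearts had 0.96 ± 0.25. The endothelial phosphatase Ptprb fell by 1.17 ± 0.19 (-0.72 in Cy5 alone), the transcription factor Erg by 0.79 ± 0.14 and the TGF-beta co-receptor Eng by 0.59 ± 0.10. The list's median was alike on the 4 double null arrays, from -0.49 to -0.41, and it was -0.42 on the brightest; with that array alone 0 members passed (limma), while 11 were lower and 0 higher at an unadjusted p under 0.05. On the dim MuRF1 null MuRF2 het array Kdr read -0.03 and Ptprb 0.25, against 0.14 to 1.04 and 0.41 to 1.28 on the other 3. Kdr and Ptprb are examples, and there too brightness and heart cannot be told apart. In bulk tissue fewer endothelial cells and less RNA per cell cannot be told apart. Of the other cell types, 2 of 14 fibroblast markers rose and 0 fell in the ratio (limma; 2 were lower at an unadjusted p under 0.05), near the background of 13.7% rises, while in Cy5 alone 0 rose and 5 fell (median 0.07 in the ratio and -0.21 in Cy5). Of 14 macrophage and leukocyte markers 3 rose, and 2 did in Cy5 alone. Of 10 smooth muscle and pericyte markers 4 fell, and in Cy5 alone 5 fell and 2 rose.

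Genes of fuel use in mitochondria fell more often than they rose in the ratio and in Cy5 alone, but most of these calls were lost with median centring. Of 38 fatty acid oxidation genes 18 fell and 4 rose (median -0.34, and -0.40 in Cy5), and of 23 genes of the citric acid cycle and pyruvate dehydrogenase 12 fell and 1 rose (median -0.47, and -0.67 in Cy5), against 12.7% falls and 13.7% rises over all genes. With median centring 5 fatty acid oxidation genes and 0 citric acid cycle genes fell (limma; 11 of the latter were lower at an unadjusted p under 0.05), at medians of -0.67 and -1.10, and with double null 3 alone 6 and 2 fell. Hadh and Eci1, enzymes of beta oxidation, fell by 0.82 ± 0.13 (-1.25 in Cy5) and 0.75 ± 0.12, and the coactivator Ppargc1b fell by 1.10 ± 0.14. Dlst, Sucla2 and Dlat, subunits of mitochondrial enzyme complexes, fell by 0.90 ± 0.12, 0.91 ± 0.13 and 0.93 ± 0.17, with -1.43 in Cy5 for Sucla2. Nnt, which makes mitochondrial NADPH, fell by 1.36 ± 0.17. The double null medians of both lists lay below those of every MuRF1 het MuRF2 null array, from -0.41 to -0.21 for fatty acid oxidation and from -0.60 to -0.37 for the citric acid cycle. Of 67 oxidative phosphorylation genes 12 fell and 3 rose in the ratio, and 27 fell and 6 rose in Cy5 alone, where 16.4% of all genes fell. The list's median was 0.03 in the ratio, -0.17 in Cy5 alone and -0.86 with median centring, where 0 passed (limma; 18 were lower and 0 higher at an unadjusted p under 0.05). By array the ratio's median was 0.41 on double null 2 and -0.34 on double null 3. Sdha of complex II fell by 1.53 ± 0.28. Of 27 glucose uptake and glycolysis genes 6 fell and 3 rose, and in Cy5 alone 12 fell and 1 rose, with hexokinase Hk2 at -1.14 ± 0.21 (-1.95 in Cy5, -0.59 in Cy3) and the glucose carrier Slc2a4 at -0.60 ± 0.14, which did not pass after scaling between arrays.

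**Figure D4:**
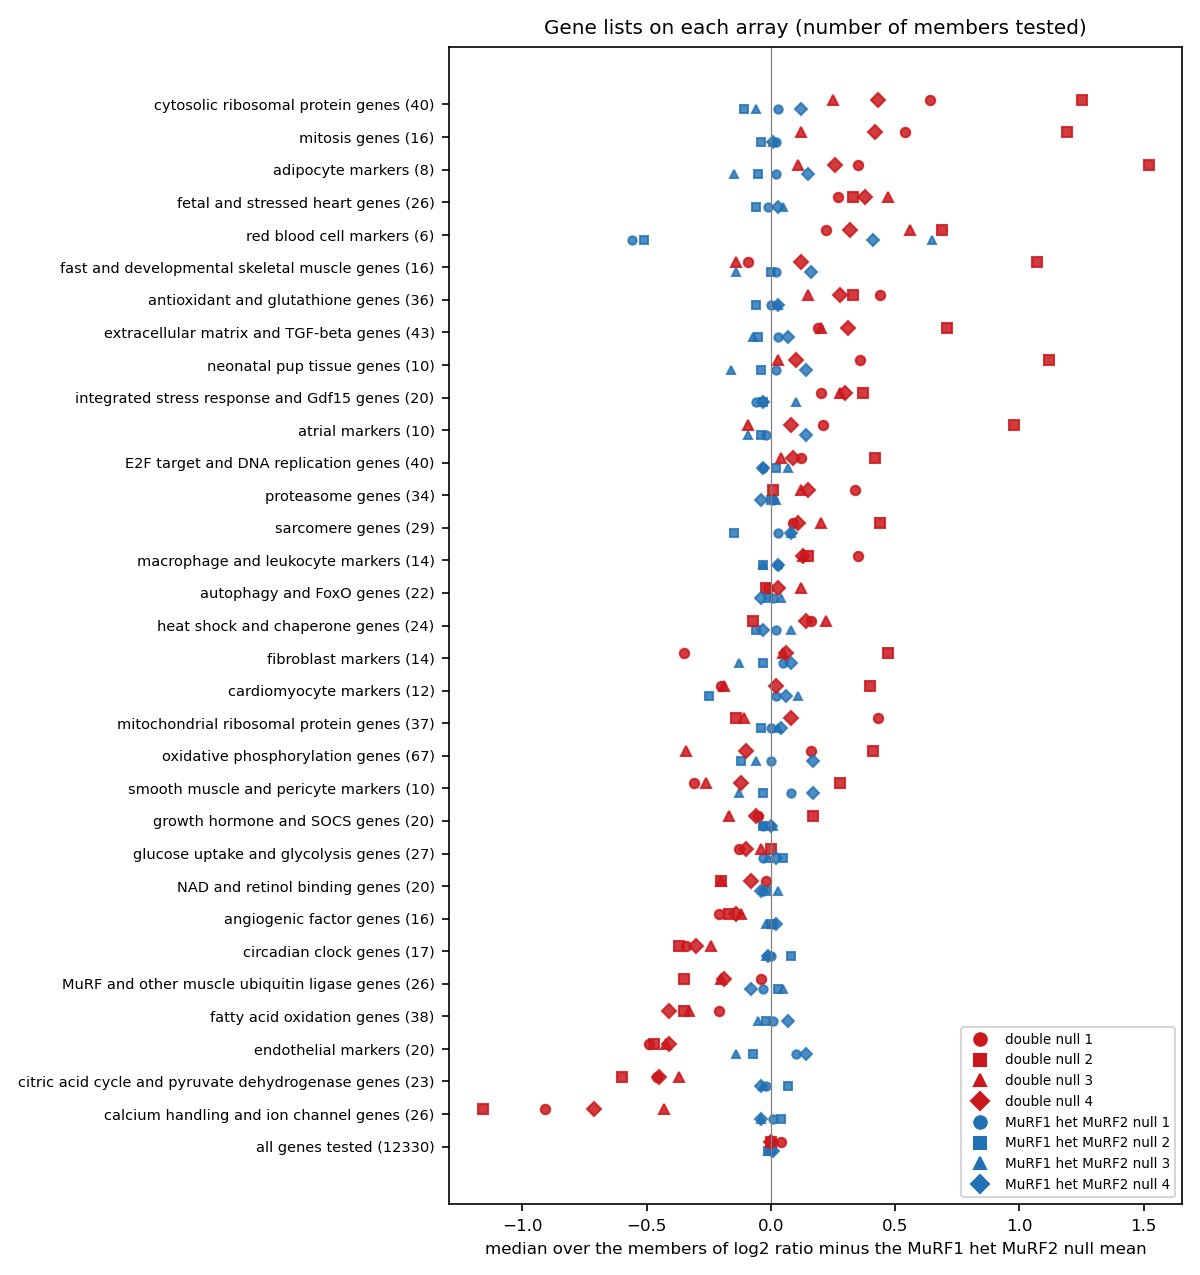
For each gene list (y axis, members tested in brackets), points give the median over its members of the log2 ratio minus the MuRF1 het MuRF2 null mean (x axis) on each of the 8 arrays. Endothelial, citric acid cycle and calcium handling medians lie below 0 on all 4 double null arrays, and double null 2 (squares) stands apart in several lists, with 1.25 for ribosomal proteins and 1.19 for mitosis genes.

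Chaperone genes passed in both directions. Hsp90aa1, the stress-inducible cytosolic HSP90, read -0.41, -0.31, -0.09 and -0.29 against -1.91, -1.95, -1.66 and -1.90. The groups were apart by 1.58 ± 0.15 (3.00-fold; limma, adjusted p = 3.62e-05), and wild type hearts had -1.51 ± 0.20. The small heat shock protein Hspb1 rose by 1.38 ± 0.13 (0.89 in Cy5 alone). The mitochondrial chaperones Hspd1 and Hspa9 fell by 1.07 ± 0.15 and 0.94 ± 0.16, while Hspe1, the partner of Hspd1, rose by 0.60 (limma, adjusted p = 0.0154), which was seen after the values were known. Of 24 chaperone genes tested, 8 rose and 4 fell, and in Cy5 alone 7 rose and 5 fell; over all genes 13.7% rose and 12.7% fell. With median centring 0 chaperone genes passed (limma; 1 was higher and 4 were lower at an unadjusted p under 0.05), and the list's median turned from 0.11 to -0.34. Proteasome genes gave 8 rises and 3 falls of 34, and integrated stress response genes 7 rises of 20, among them asparagine synthetase (Asns) by 1.26 ± 0.24. In Cy5 alone 11 proteasome genes rose and 4 fell, and 3 stress response genes rose (medians 0.09 and 0.13); with median centring 0 proteasome genes passed (limma; 2 were lower at an unadjusted p under 0.05) and 1 stress response gene did, and the list medians, 0.16 and 0.32, turned to -0.49 and -0.12.

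Many ribosomal protein genes rose, but not evenly over the arrays. Of 40 cytosolic members 21 rose and 0 fell (limma; 0 were lower at an unadjusted p under 0.05, and in Cy5 alone 23 rose and 1 fell), against 13.7% rises over all genes. The median was 0.65 in the ratio, 0.38 in Cy5 alone and, with its sign turned, -0.30 under median centring, where 0 members passed (limma; also 0 at an unadjusted p under 0.05). The median was 1.25 on double null 2, 0.64 on double null 1, 0.43 on double null 4 and 0.25 on double null 3, so it was highest on the dimmest array and lowest on the brightest; without double null 2, 9 members rose, and with double null 3 alone 1 did. With Cy5 brightness as a covariate the list's median was 0.43, but brightness did not overlap between the groups. That fit cannot separate brightness from genotype, and the part of brightness in the result was not tested. Antioxidant and glutathione genes gave 16 rises and 2 falls of 36 (median 0.36, 0.19 in Cy5, -0.13 under median centring), and 10 rises and 3 falls in Cy5 alone; under median centring 0 passed (limma; 4 were higher and 2 lower at an unadjusted p under 0.05). Gsta1, a glutathione transferase, rose by 1.53 ± 0.20, from -1.56 ± 0.06 to -0.03 ± 0.13, and Gpx4, which clears lipid peroxides, by 1.08 ± 0.26; with median centring they were at 1.12 and 0.26 and did not pass (limma, adjusted p = 0.103 and 0.731). Gsta1 and its neighbour Gsta2 are near copies whose probes may share signal.

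Extracellular matrix and TGF-beta genes gave 13 rises and 2 falls of 43 in the ratio, but 9 rises and 13 falls in Cy5 alone, where 13.0% of all genes rose and 16.4% fell. The median was 0.36 in the ratio, -0.08 in Cy5 alone and -0.01 under median centring. Besides Ccn2, thrombospondin Thbs4 rose by 1.44 ± 0.29 and the protease inhibitor Timp1 by 0.68 ± 0.14, while Timp3 fell by 1.15 ± 0.19. The fibrillar collagens Col1a1 (1.12, limma, adjusted p = 0.194), Col1a2 (0.08) and Col3a1 (-0.22) did not pass in the ratio; in Cy5 alone they were at 0.64, -0.38 and -0.66, and Col3a1 passed as lower there (limma, adjusted p = 0.0154).

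E2f1 itself could not be tested, because neither of its probes reached the filter, and both stayed below the limit for signal on every double null array. Of 40 E2F target and DNA replication genes 10 rose and 2 fell (median 0.20, 0.01 in Cy5 and -0.06 under median centring), and of 16 mitosis genes 7 rose (median 0.57, 0.23 in Cy5), against 13.7% rises over all genes. In Cy5 alone 7 of the first list rose and 3 fell, and 4 mitosis genes rose and 1 fell; with median centring 1 of the first list rose and 1 fell, and 5 mitosis genes rose. From the first list 4 members rose in the ratio and in Cy5 with arrays apart. They were E2f6, a repressor of the family (0.62 ± 0.11), E2f3 (0.47 ± 0.10), the replication clamp loader Rfc4 (0.37 ± 0.09) and the cell cycle inhibitor Cdkn1a (0.91 ± 0.15). Double null hearts did not differ from wild type in E2f6 (0.15), E2f3 (0.16) or Cdkn1a (0.09; limma, adjusted p = 0.355, 0.273 and 0.697). Rfc4 was higher than in wild type by 0.36 (limma, adjusted p = 0.0132). Aurka, a mitotic kinase, rose by 0.61 ± 0.19 (limma, adjusted p = 0.0282), but not without double null 2 (0.41, adjusted p = 0.0744). On the brightest double null array the medians of the E2F and mitosis lists were 0.04 and 0.12. They were highest on double null 2, the dimmest, at 0.42 and 1.19.

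Growth hormone and SOCS genes gave 6 falls and 1 rise of 20 (all genes: 12.7% fell, 13.7% rose), and their median was 0.00 in the ratio and -0.18 in Cy5 alone, where 9 fell and 1 rose; with median centring 3 fell. Cish, a feedback target of STAT5, read 0.93, 0.68, 0.34 and 0.46 against 1.91, 2.07, 2.14 and 1.46. The groups were apart by -1.29 ± 0.19 (limma, adjusted p = 0.000353), with wild type hearts at 2.39 ± 0.24 and MuRF1 null MuRF2 het hearts at 1.57 ± 0.35. Stat5a and Stat5b fell by 0.42 ± 0.11 and 0.41 ± 0.09. Against wild type, double null hearts differed in Stat5b by -0.54 (limma, adjusted p = 0.000841). Stat5a did not pass there (-0.11, limma, adjusted p = 0.472). Among 17 clock genes 5 fell and 2 rose, in Cy5 alone 7 fell and 2 rose, and with median centring 3 fell (median -0.21 in the ratio and -0.24 in Cy5). The output genes Hlf, Usp2 and Nr1d1 fell by 1.29 ± 0.21, 1.19 ± 0.24 and 1.10 ± 0.22, with -0.85 for Hlf and -0.58 for Nr1d1 in Cy5 alone, and Nfil3, a repressor of the same sites as Hlf, rose by 0.86 ± 0.18. Nr1d1 was well above background on 2 of 4 double null arrays, and Hlf and Usp2 on 3 of 4. No label gives the time of day of the harvest.

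For several named genes it was the MuRF1 het MuRF2 null group that lay apart from the others. Pdk4, the kinase that shuts off pyruvate dehydrogenase, read 0.74, 0.87, 1.05 and 0.92 in double null hearts and -0.69, -1.57, -1.25 and -0.35 in MuRF1 het MuRF2 null hearts (difference 1.86 ± 0.25; limma, adjusted p = 0.000213). Wild type hearts, with 0.69 ± 0.13, and MuRF1 null MuRF2 het hearts, with 0.91 ± 0.56, were close to the double null hearts. MuRF1 het MuRF2 null hearts differed from wild type by -1.66 ± 0.25 (limma, adjusted p = 0.00508), and double null hearts by 0.20. Bnip3, a mitophagy gene, behaved alike in its means, with 1.00, -0.10, 0.66 and 0.90 in double null, MuRF1 het MuRF2 null, wild type and MuRF1 null MuRF2 het hearts; its double null minus MuRF1 het MuRF2 null difference was 1.09 in the ratio, 0.62 in Cy5 alone and -0.40 in Cy3. Cdkn1a had -0.32, -1.23, -0.41 and -0.54 in the same order, and its Cy3 signal differed by -0.31 on the double null arrays, and Cy5 alone differed by 0.29. The proteasome ATPase Psmc5 (0.87, 0.41, 0.89 and 0.75), the ribosomal protein Rps6 (-0.48, -1.17, -0.81 and -0.63) and E2f6 (1.71, 1.10, 1.56 and 1.46) likewise had their lowest mean in the group on the slide of its own.

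**Figure D5:**
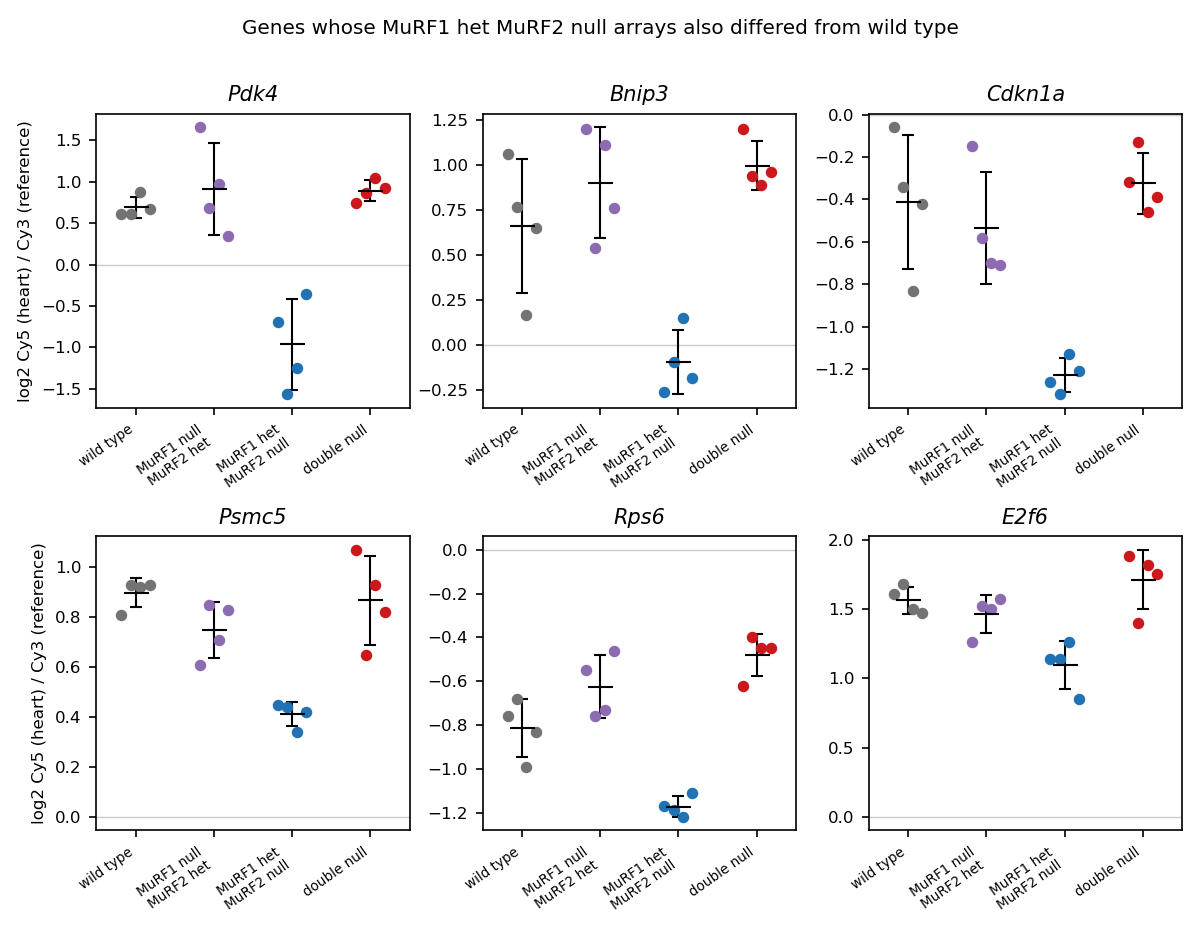
Each panel plots the log2 ratio of heart over reference (y axis) on the 4 arrays of each genotype (x axis), with the mean and SD as bars. For Pdk4, Bnip3, Cdkn1a, Psmc5, Rps6 and E2f6 the MuRF1 het MuRF2 null arrays are the lowest group, with a Pdk4 mean of -0.96 against 0.69 in wild type.

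For other genes with large differences double null hearts also differed from wild type. Against wild type, on slides that held both groups, double null hearts differed by 2.90 for Nppa, 2.73 for Nmrk2, 2.38 for Ccn2, -1.52 for Myh6 and 1.23 for Hsp90aa1. Pln, with -1.02, did not pass against wild type (limma, adjusted p = 0.0993). These comparisons share the double null arrays. The contrast of MuRF1 null MuRF2 het with MuRF1 het MuRF2 null hearts called 1055 genes (8.56%). By genotype it is the difference between losing the last MuRF1 allele and losing the last MuRF2 allele. Among the called genes were Trim63 by -2.58 ± 0.14, Ttn by -2.11 ± 0.34 and Ppm1k by -1.32 ± 0.23 (limma, adjusted p = 4.68e-08, 0.00378 and 0.00532). The groups of this contrast lay on separate slides that held no other genotype, so it also compares slides. In the Cy3 channel 6831 of 12330 genes passed between these groups. The array MuRF1 null MuRF2 het 1 was dim, with 6402 probes above background. The part of slide and brightness in the 1055 calls was not tested.

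Since the groups differed at Trim63, genes near it could differ by the origin of the chromosome. Within 10 Mb of Trim63 on chromosome 4, 25 of 210 genes tested rose and 24 fell (23.3%), against 26.5% of the other genes with a known place. The stricter count gave 12.9% near and 11.4% elsewhere. Fndc5, the precursor of irisin, fell by 1.32 ± 0.13 from 3.13 ± 0.14 to 1.81 ± 0.30. It had the largest difference of the near genes in the stricter count and is named here after its values were seen. Within 10 Mb of Trim55, which both groups lacked, 4 of 27 genes rose and 3 fell (25.9%).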

How the data were processed

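Hearts of 16 mice were measured on 2-colour Agilent arrays, and 8 arrays enter this comparison. Per the file headers, the deposited spot intensities in both colours, and the log10 ratio of Cy5 over Cy3, come from Agilent Feature Extraction 9.1.3.1, with 9.5.3.1 used on the slide of the MuRF1 het MuRF2 null hearts. The series matrix the authors deposited gives log2 values that equal that ratio minus each probe's median within 0.01 for 71.5% of values; they served as an alternative. Per the labels, 50 ng of RNA was labelled. The labelling protocol names only Cy3-CTP, and the channel entries were followed.

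Intensities were processed in R 4.3.3 with limma 3.58.1. Background was corrected by normexp (offset 50), and each array was normalised by loess; control spots and spots flagged as irregular were left out. Probes well above background in Cy5 on at least 4 of 16 arrays were kept (16810), with 1 probe per gene, the brightest (12331 genes, 12330 tested). The fit had 1 mean per group over all 16 arrays, with Benjamini-Hochberg adjustment and a threshold of 0.05. Cy5 and Cy3 alone were quantile normalised. Where a gene was not well above background on any array of a group, the fold is a lower bound, from the lowest signal well above background on each array. The bound belongs to the loess-normalised signal and not to Cy5 alone. The number of arrays limits the precision. The fit was tested on simulated data.

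Gene symbols were updated from RefSeq for 22951 of 41174 probes through accessions and for a further 6659 and 3109 through symbols and synonyms. The lists and members were chosen with earlier results of these data known. The text names the MuRF family, a set of heart stress genes, the 12 largest rises and falls in the stricter count, up to 4 members of each of the 32 lists that met the same conditions, and a few genes marked as chosen after their values were seen, with further members of the calcium and matrix lists. Same-numbered replicates did not deviate together (correlations -0.13, -0.15, 0.16 and -0.23), so no pairing was used. Alternatives covered normalisation, filters, brightness, slides and leaving out arrays.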

Additional observations from a re-analysis of the deposited data

Results flagged for a closer look

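Of 208 groups of 4 values examined (each named gene in each genotype of the comparison), 13 had an array apart from the other 3 by the 95% limit of Dixon's test; chance gives about 1 in 20, or 10.4. On double null 2, the dimmest array, the value apart was -0.52 for Trim55 (next -1.59), 0.59 for Ppm1k (next 1.16), 3.14 for Pln (next 4.81), -0.05 for Kcne1 (next 0.06) and 1.24 for Mrpl20 (next 0.90). On double null 1 it was 0.17 for Txn1 (next 0.06) and 0.13 for Stat5b (next 0.26). On MuRF1 het MuRF2 null 3 it was 4.03 for Nppa (next 2.94), the heart of its group that also had the highest Nppb and Myh7. On MuRF1 het MuRF2 null 2 it was -1.65 for Gsta1 (next -1.54), 1.35 for Kcnj3 (next 1.23), 1.73 for Kcne1 (next 1.28) and 1.66 for Pfkm (next 1.64), and on MuRF1 het MuRF2 null 4 it was 1.57 for Eci1 (next 1.48); several of these gaps are small in size.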

How the results depend on the processing

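The count of 3251 genes was within 1.5 times of the main value under most alternatives. It was 881 with median centring (380 higher and 501 lower), 1594 of 5059 with probes above background on all 8 arrays, 6380 with array weights, 2014 with the double null arrays of slide 3 and, chosen after seeing the data, 656 with double null 3 alone (376 higher and 280 lower); the lone array is then assumed to vary like the other groups. Leaving out 1 array gave 2172 to 3789. With the replicate number as a block it was 2924, and the block changed no call of a named gene. Slide as a random block gave 3327 (correlation -0.008) and Cy5 brightness as a covariate 3941. The reference channel count of 6996 was 3121 under the strict filter, where fewer genes were tested, and 6364 to 6744 with 1 array left out.

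The median of all genes was 0.01 in the main setting, -0.15 with median centring and -0.19 with the log ratio of the image software. Of 104 named genes tested, median centring left 34 on the same side of the threshold, 61 lost the call and 9 changed sign without passing: Trim54 (-0.23), Txn1 (-0.23), Gabarapl1 (-0.14), Rps6 (-0.08), Rpl10a (-0.01), Rps27l (-0.04), Mrpl16 (-0.17), Psma3 (-0.03) and Psma7 (-0.05). Trim55, not called in the ratio, passed as higher in Cy5 alone (1.48). With double null 3 alone 57 named genes lost the call and no called gene changed sign; Nppa (1.21, adjusted p = 0.053), Kcnq1 (-1.02, 0.112) and Kdr (-1.13, 0.0589; limma) were among them. The log ratio of the image software lost 16 calls, Nebl among them (-0.86). With the double null arrays of slide 1 Myh7 was at 1.88 (limma, adjusted p = 0.078). The causes were not tested. Low Cy5 signal limits what can be said of genes near background on the double null arrays.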
